A study of Mus musculus with 6 samples.

Results

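The genes described here are a set of 9 known from the contractile apparatus and the vascular wall: Acta2, Tagln, Myh11, Cnn1, Lmod1, Smtn, Myocd, Rgs5 and Mcam. They were chosen by name among the 21878 genes of the deposited count table, and all 9 were present and passed the filter on low counts. RNA came from mouse Achilles tendon after Achilles tendon amputation (3 libraries, titled HO, amputation 1 to 3 here) and after a sham operation (3 libraries, sham 1 to 3). The series title places the comparison in a study of trauma-induced heterotopic ossification, the formation of bone in soft tissue. No genotype, transgene or drug is named for either group, and the labels leave out strain, age, sex and the time after surgery. They also do not say whether each library is 1 animal, so the p-values speak only of the spread among these libraries, part of which may be technical.

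Smooth muscle cells surround arteries and veins and contract when myosin II pulls on actin filaments, and pericytes are the related mural cells of capillaries. The transcription factor SRF binds a short DNA element, the CArG box, in front of many contractile genes, and its coactivator myocardin, the product of Myocd, drives the mature contractile programme. The programme is graded: Acta2 and Tagln are also made by activated fibroblasts, the myofibroblasts of healing tissue, while Myh11 is among the more restricted markers of mature smooth muscle.

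Library totals ran from 28410231 to 31346730 counts after amputation and from 23916839 to 27140226 in sham. Libraries of 1 group differed in skeletal muscle RNA. The 30 skeletal muscle markers took 1.61%, 0.503% and 15.7% of the counts in amputation 1 to 3, against 19.1% to 21.2% in sham. None of the 30 was at 0 in any library. Amputation 3 thus stood near sham for muscle. Without it all 30 were called lower after amputation, at a median log2 fold change of -4.06, while with all 6 libraries none was called, at a median of -1.55, in edgeR's test (described below). The 12 markers of activated fibroblasts took 6.0% to 15.4% of the counts after amputation, against 0.544% to 1.04% in sham, and the 8 tendon markers took 2.57% to 6.31%, against 0.404% to 1.07%. No tendon marker was at 0 in any library. Of the 8, 5 were called higher by the same test, against 20.4% of all tested genes. Leaving out amputation 1, 2 and 3 and sham 1, 2 and 3 in turn gave 2, 2, 8, 2, 1 and 2 higher. In a piece of whole tissue, fewer cells of a type and less RNA per cell cannot be told apart.

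The SRF element gives a reason to look at the DNA in front of these genes. RefSeq promoter windows in GRCm38.p6, which run from 250 bases before to 50 bases after a transcript start, matched 6 of the 9 genes: Acta2, Cnn1, Lmod1, Mcam, Rgs5 and Smtn. Tagln, Myh11 and Myocd are named only. The windows of Acta2 (chr19:34255324-34255623, minus strand), of Lmod1 (chr1:135324563-135324862, plus strand) and of Smtn (chr11:3539243-3539542, minus strand) are shown, since Acta2 was not called, Lmod1 fell and Smtn had the highest fold change of the set, as described below. Capitals mark only the forms of the CArG box that were sought, defined after the sequences. Forms with a change in the outer CC or GG were not sought, so a window without capitals may still hold one.
Acta2: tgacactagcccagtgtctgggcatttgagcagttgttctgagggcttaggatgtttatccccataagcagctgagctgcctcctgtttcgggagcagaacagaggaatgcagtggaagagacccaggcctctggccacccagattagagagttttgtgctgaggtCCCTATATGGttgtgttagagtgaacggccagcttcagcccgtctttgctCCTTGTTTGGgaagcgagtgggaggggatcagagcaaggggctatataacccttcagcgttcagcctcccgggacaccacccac
Lmod1: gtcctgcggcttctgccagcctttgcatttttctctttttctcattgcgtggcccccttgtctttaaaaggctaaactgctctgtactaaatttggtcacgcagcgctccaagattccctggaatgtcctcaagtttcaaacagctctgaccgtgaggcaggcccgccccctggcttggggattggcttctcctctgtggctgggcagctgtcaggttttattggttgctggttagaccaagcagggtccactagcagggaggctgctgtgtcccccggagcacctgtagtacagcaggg
Smtn: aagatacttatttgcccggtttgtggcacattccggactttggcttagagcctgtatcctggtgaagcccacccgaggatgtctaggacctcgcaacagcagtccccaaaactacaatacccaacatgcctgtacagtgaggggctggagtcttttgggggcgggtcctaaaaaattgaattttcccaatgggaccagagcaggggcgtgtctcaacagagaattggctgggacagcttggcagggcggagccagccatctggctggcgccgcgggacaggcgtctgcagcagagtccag
The search looked for the CArG box on both strands, its pattern being the same on each, and for the form in which 1 base of the A/T core is G or C. The Acta2 window held that form at 2 places and held no strict box. CCCTATATGG started 84 bases and CCTTGTTTGG 34 bases before the transcript start used for this window. That start is not the outer end of the gene's range (34255585), and another start would give other distances. The other 5 windows held neither form. Of all 32851 windows of this length, 1.63% held the strict box and 9.98% held either form. A match is a stretch of letters and no measured binding.

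The 9 genes did not move as a block after amputation. Of these 9, 4 were lower (Myocd, Lmod1, Myh11 and Mcam), none was higher and 5 were not called at an adjusted p under 0.05 in edgeR's quasi-likelihood test, adjusted over all genes by the Benjamini-Hochberg method. Of the 14561 genes tested, 12.3% were lower and 20.4% higher by the same rule, and 32.7% were called in either direction. Neither DESeq2 nor limma-voom called a member higher, and in edgeR's test no member with a positive fold change reached an unadjusted p of 0.05. The median log2 fold change of the 9 was -0.59, beside -0.02 over all tested genes. In CPM (counts scaled by library size with TMM factors) the groups did not overlap for 6 of the 9, against 54.8% of all genes, and amputation was the lower group for all 6, as for 26.1% of all genes. The other 3, Acta2, Tagln and Smtn, overlapped.

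**Figure D1:**
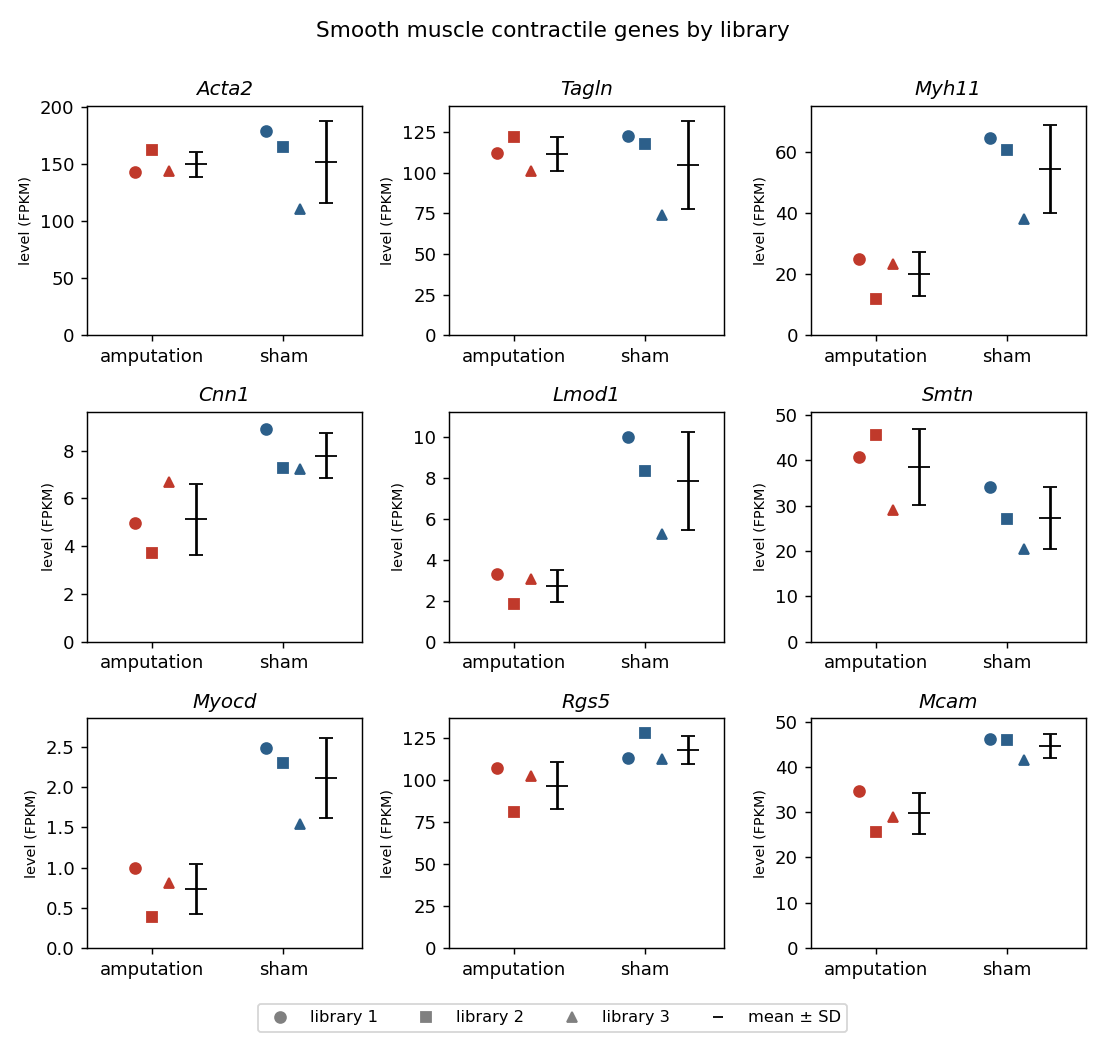
Level in FPKM (counts scaled by gene length and library total) of each gene in each library, amputation left and sham right, with mean ± SD over 3 libraries beside the points and an axis from 0 in each panel. Myh11, Lmod1, Myocd and Mcam are lower in each amputation library than in each sham library. So are Cnn1 and Rgs5, which were not called, while the points of Acta2 and Tagln lie at like heights.

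Myocd and Lmod1, the coactivator and an actin filament nucleator of smooth muscle, fell by similar amounts. Myocd (NCBI gene 214384, chromosome 11, 65173608 to 65269989) stood at 0.992, 0.390 and 0.811 FPKM in amputation 1 to 3, against 2.49, 2.30 and 1.55 FPKM in sham 1 to 3. Each amputation library lay below each sham library, and amputation 2 was the lowest. The fold change of Myocd was log2 -1.54 ± 0.34 (SE, n = 3 per group; edgeR adjusted p = 0.0183), a level 0.344 times that of sham. Myocd had the lowest mean FPKM of the 9. It had 235, 100 and 212 counts after amputation and 496, 501 and 350 counts in sham. Its counts were the lowest of the 9 in each amputation library, but in sham 1 and 2 Cnn1 had fewer (447 and 399). Lmod1 (NCBI gene 93689, chromosome 1, 135324813 to 135368065) stood at 3.30, 1.83 and 3.03 FPKM after amputation, against 9.97, 8.32 and 5.26 FPKM in sham. The groups were apart here too, with amputation 2 again lowest and sham 3 the lowest sham library. Lmod1 fell by 1.53 on the log2 scale (SE 0.29; edgeR adjusted p = 0.0119).

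Myh11, the smooth muscle myosin heavy chain and motor of contraction (NCBI gene 17880, chromosome 16, 14194527 to 14292188), stood at 25.1, 11.8 and 23.3 FPKM after amputation. In sham 1 to 3 it stood at 64.4, 60.6 and 38.0 FPKM. The groups did not overlap, and the order of libraries within each group was that of Lmod1. Myh11 fell by 1.44 on the log2 scale (SE 0.33; edgeR adjusted p = 0.0206), to 134 ± 44.7 CPM after amputation, against 364 ± 86.3 CPM in sham (SD, n = 3 each).

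The 3 decreases were present in amputation 3, the library rich in skeletal muscle RNA. There Myh11 lay at log2 -1.11, Lmod1 at -1.25 and Myocd at -1.27 against the sham mean, beside -1.21, -1.32 and -1.18 in amputation 1. The skeletal muscle markers had medians of -0.10 in amputation 3 and -3.51 in amputation 1 on the same scale. Amputation 2 had the lowest values, at -2.11 for Myh11, -1.99 for Lmod1 and -2.33 for Myocd, beside -4.78 for the muscle markers. Without amputation 3 the log2 fold changes were -1.62, -1.66 and -1.67 for Myh11, Lmod1 and Myocd, and each was called.

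With the log2 CPM of the summed muscle markers as a covariate, none of the 9 genes was called in edgeR's test, with 4 lower at an unadjusted p under 0.05. Then Lmod1 was at -1.20 (adjusted p = 0.0594), Myocd at -1.12 (0.107), Myh11 at -1.001 (0.103) and Mcam at -0.50 (0.0636), edgeR's test in each case. The covariate itself followed the groups, the markers taking 0.503% to 15.7% of counts after amputation and 19.1% to 21.2% in sham. This fit therefore cannot separate surgery from muscle content, and it also leaves fewer degrees of freedom. The calls also rested on the sham libraries. Without sham 2 none of the 9 was called (4 lower at an unadjusted p under 0.05), and without sham 1 only Lmod1 was. Myh11 was not called without amputation 1 either (log2 -1.56, adjusted p = 0.0573).

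**Figure D2:**
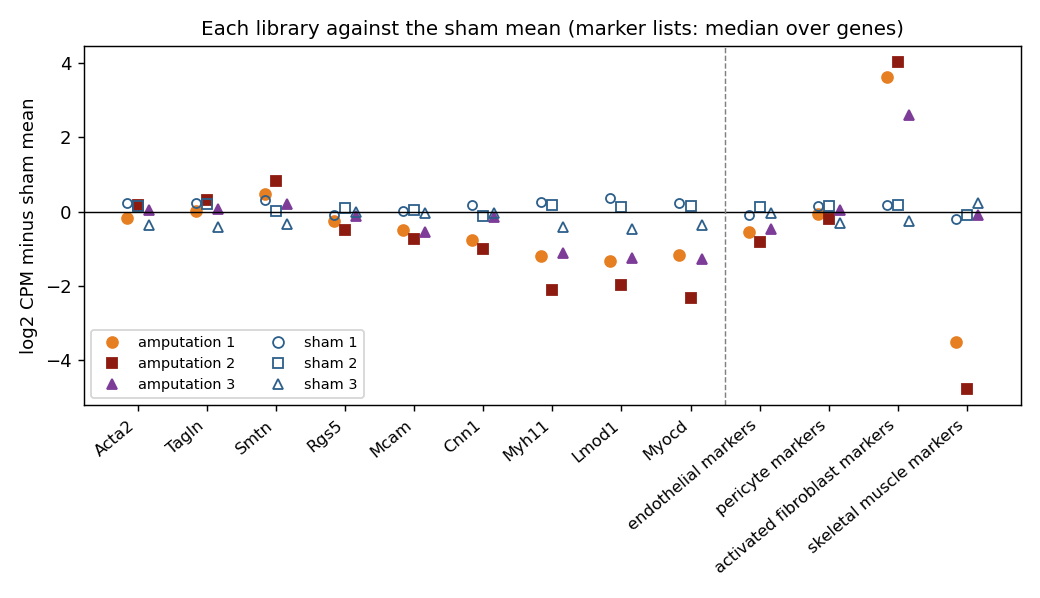
Difference of each library's log2 CPM from the sham mean for the 9 genes (left of the dashed line) and, right of it, the median over the genes of 4 marker lists. In amputation 3 (triangles) the skeletal muscle median is -0.10 while Myh11, Lmod1 and Myocd lie at -1.11, -1.25 and -1.27.

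Acta2 and Tagln, the most abundant contractile genes of the set, had close to equal means in both groups. Acta2, smooth muscle alpha actin (NCBI gene 11475, chromosome 19, 34240336 to 34255585), stood at 143, 162 and 144 FPKM after amputation, against 179, 165 and 111 FPKM in sham. The 3 amputation libraries all lay within the sham range. Its log2 fold change was -0.0077 ± 0.23 (SE; edgeR adjusted p = 0.982) with a 95% interval of -0.57 to 0.56, which leaves room for a change of either sign. Tagln, transgelin, an actin-binding protein (NCBI gene 21345, chromosome 9, 45929628 to 45936058), stood at 112, 122 and 101 FPKM, against 122, 118 and 73.8 FPKM. It stood at log2 0.10 ± 0.21 (edgeR adjusted p = 0.734), with a 95% interval of -0.42 to 0.61. Sham 3 was the lowest library for both genes. The signs of both values turned under other settings, given in the closing section.

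Both genes are also made by activated fibroblasts, whose markers were higher after amputation. Of that list of 12, 11 were called higher, none lower, and the median log2 fold change was 3.55. Among all tested genes 20.4% were higher and 12.3% lower. Cthrc1, a secreted protein of activated fibroblasts, rose by log2 7.77 ± 0.50, and Postn, the matrix protein periostin, by 4.93 ± 0.32, at 721, 731 and 506 FPKM after amputation against 23.1, 18.7 and 21.9 FPKM in sham. The summed level of the list was 21391 to 25015 FPKM in amputation 1 and 2 and 9970 FPKM in amputation 3, against 872 to 1662 FPKM in sham, and no marker was at 0. Leaving out amputation 1, 2 and 3 and sham 1, 2 and 3 in turn gave 8, 10, 12, 7, 6 and 7 higher. The part of these cells in the level of Acta2 and Tagln was not tested.

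Acta2 shares nearly all of its protein sequence with the other muscle actins. Any reads that match several of these genes may be divided between them by an unstated counting rule. Acta1, the skeletal muscle form, stood at 781, 318 and 6537 FPKM in amputation 1 to 3 and at 7682 to 9812 FPKM in sham. Actc1, the cardiac muscle form, stood at 4.84, 2.18 and 128 FPKM in amputation 1 to 3 and at 14.8 to 17.3 FPKM in sham. Acta2 stood at 143, 162 and 144 FPKM in the same 3 amputation libraries. The division of reads among the muscle actins was not tested. Actg2, the smooth muscle gamma actin, rose by log2 0.49 ± 0.12, at 11.7 to 14.7 FPKM after amputation and 8.89 to 9.44 FPKM in sham.

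The ratio to Acta2 sets the genes against each other within a library and needs no scaling between libraries. Myh11 stood at 0.175, 0.0730 and 0.162 times the FPKM of Acta2 in amputation 1 to 3, against 0.360, 0.368 and 0.343 times in sham 1 to 3. Myocd stood at 0.00694, 0.00240 and 0.00563 times Acta2, against 0.0139, 0.0139 and 0.0139 times. The sham libraries were thus nearly alike in both ratios although their Acta2 levels ran from 111 to 179 FPKM. Of the 8 such ratios, those of Myh11, Myocd, Lmod1, Mcam and Smtn did not overlap between groups (exact two-sided permutation p = 0.1 each, the smallest that 3 against 3 allow, adjusted p = 0.16 over the 8). Over the 14560 tested genes other than Acta2, 36.8% of the ratios to Acta2 did not overlap, with 16.5% lower and 20.3% higher after amputation. The mean log2 ratio to Acta2 differed by -1.49 for Myh11, -1.61 for Myocd, -1.53 for Lmod1, -0.60 for Mcam and 0.49 for Smtn, amputation minus sham. Tagln differed by 0.11 (exact permutation p = 0.2, n = 3 each).

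Cnn1, calponin, which restrains the myosin motor of smooth muscle (NCBI gene 12797, chromosome 9, 22099221 to 22109221), stood at 4.96, 3.72 and 6.70 FPKM after amputation. In sham it stood at 8.90, 7.25 and 7.23 FPKM. The groups were apart, but amputation 3 lay close to sham 2 and 3. The log2 fold change was -0.60 ± 0.24 and was not called (edgeR adjusted p = 0.1, 95% interval -1.18 to -0.01). Without amputation 3 Cnn1 was called, at -0.89 (adjusted p = 0.00204), and with the muscle covariate it stood at -0.10.

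Smtn, smoothelin, a cytoskeletal protein of contractile smooth muscle (NCBI gene 29856, chromosome 11, 3517522 to 3539292), was the member with the highest fold change. It stood at 40.7, 45.5 and 29.1 FPKM after amputation and at 34.1, 27.1 and 20.4 FPKM in sham, and amputation 3 lay below sham 1. The log2 fold change of 0.50 ± 0.24 was not called (edgeR adjusted p = 0.141, 95% interval -0.07 to 1.07). Without amputation 3 it was called, at 0.64 (adjusted p = 0.0278), and with the muscle covariate it stood at 0.10. Smtn shares 714 exon bases with Gm11946 and 39 with Gm11947, and Tagln shares 1241 with Gm48529 and 108 with Pcsk7, all on the other strand in GENCODE M21. Mcam shares 17 with Gm10687. Without a stated strand setting, reads of such partners cannot be told apart.

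Rgs5 and Mcam mark the vascular wall rather than the contractile machine. Rgs5, a brake on G-protein signalling that is abundant in pericytes (NCBI gene 19737, chromosome 1, 169655501 to 169695813), stood at 107, 80.9 and 102 FPKM after amputation and 113, 128 and 113 FPKM in sham. The groups did not overlap, by a narrow margin. Its log2 fold change of -0.29 ± 0.20 was not called (edgeR adjusted p = 0.278, 95% interval -0.77 to 0.18). Mcam, an adhesion molecule of mural and endothelial cells also known as CD146 (NCBI gene 84004, chromosome 9, 44134658 to 44142727), stood at 34.7, 25.7 and 29.0 FPKM, against 46.1, 46.0 and 41.5 FPKM. Sham libraries were close together and all above amputation. Mcam fell by 0.59 on the log2 scale (SE 0.13; edgeR adjusted p = 0.0176), and was not called without amputation 2 (-0.52), sham 1 (-0.58), sham 2 (-0.59) or sham 3 (-0.65).

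**Figure D3:**
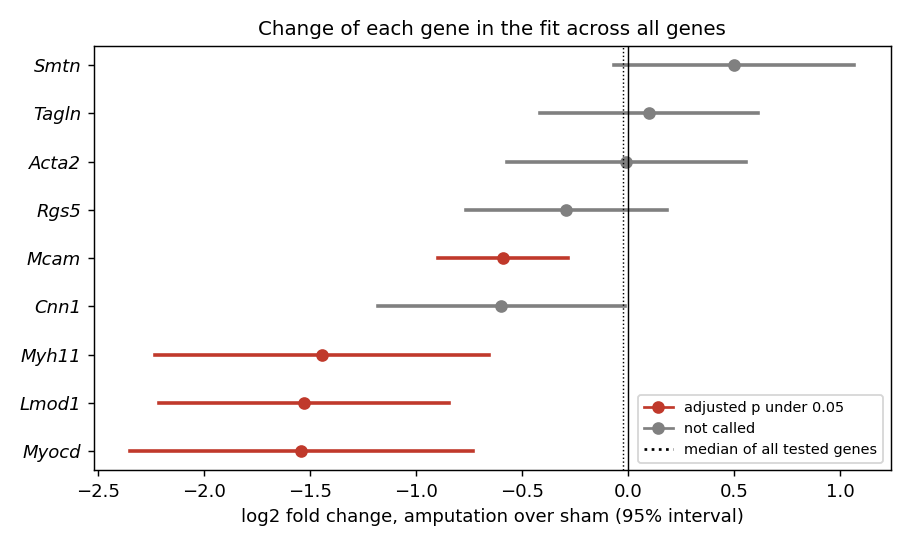
Log2 fold change, amputation over sham, of the 9 genes with 95% intervals from the fit across all genes (red, adjusted p under 0.05; grey, not called; dotted line, the median of all tested genes at -0.02). Myocd, Lmod1 and Myh11 lie near -1.5, Mcam at -0.59, and the intervals of the 5 grey genes reach 0 or stop at -0.01.

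Endothelial markers moved beside Mcam. Of 12 endothelial markers, 7 fell, 1 rose and 4 were not called, with a median log2 fold change of -0.66. Of all tested genes, 12.3% were lower and 20.4% higher. Esam, an endothelial adhesion molecule, fell by 0.70 (SE 0.11), at no more than 18.8 FPKM after amputation and no less than 26.8 FPKM in sham. Egfl7, a secreted endothelial factor, fell by 0.66 (SE 0.12). The one that rose was Erg, a transcription factor of endothelium that is also known from developing cartilage, by log2 1.23 ± 0.17. The summed endothelial level was 192 to 259 FPKM after amputation and 329 to 376 FPKM in sham, and none of the 12 was at 0. Leaving out amputation 1, 2 and 3 and sham 1, 2 and 3 in turn gave 2, 5, 11, 3, 1 and 3 lower and 1 higher each time. With the muscle covariate 3 were lower. The part of endothelial cells in the value of Mcam was not tested.

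Pericyte markers went both ways beside Rgs5. Of 12, 3 rose (Anpep, Cspg4 and Pdgfrb), 1 fell and 8 were not called, with a median of -0.28. These counts lay near the shares over all tested genes, 20.4% higher and 12.3% lower. Cspg4, the proteoglycan NG2, rose by log2 1.82 ± 0.41, at 54.8, 72.9 and 27.7 FPKM after amputation and 19.9, 14.6 and 9.63 FPKM in sham. Anpep, an aminopeptidase, rose by 1.20 ± 0.24. Pdgfrb, the receptor that recruits mural cells and is also made by fibroblasts, rose by 0.93 ± 0.27. The one that fell was Notch3, the mural cell Notch receptor, by 0.88 on the log2 scale (SE 0.22), at 18.3, 11.5 and 13.6 FPKM against 29.4, 31.0 and 19.1 FPKM. Kcnj8, a potassium channel subunit of pericytes, stood at -0.44 ± 0.23 and was not called (edgeR adjusted p = 0.171). The summed level of the list was 210 to 315 FPKM after amputation and 163 to 223 FPKM in sham, with no marker at 0. Leaving out amputation 1, 2 and 3 and sham 1, 2 and 3 in turn gave 0, 2, 4, 2, 0 and 0 higher and 0, 0, 4, 0, 0 and 1 lower, and the muscle covariate left none.

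Levels compared per length kept Acta2 first and Myocd last in both groups. After amputation the order by mean FPKM was Acta2 (150), Tagln (112), Rgs5 (96.8), Smtn (38.4), Mcam (29.8), Myh11 (20.1), Cnn1 (5.12), Lmod1 (2.72) and Myocd (0.731). In that order Tagln and Rgs5, and Smtn and Mcam, overlapped between libraries, and the other neighbours did not. In sham it was Acta2 (152), Rgs5 (118), Tagln (105), Myh11 (54.3), Mcam (44.5), Smtn (27.2), Lmod1 (7.85), Cnn1 (7.79) and Myocd (2.11). There Acta2, Rgs5 and Tagln overlapped in turn, as did Myh11 with Mcam and Lmod1 with Cnn1. Myh11 held the sixth place after amputation and the fourth in sham, and Smtn the fourth after amputation and the sixth in sham.

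Several of the 9 have close relatives that are not specific to smooth muscle, and 8 of these relatives were higher after amputation. Of 19 relatives tested, 8 rose (Cnn2, Actg1, Tagln2, Cnn3, Rgs16, Myh9, Actb and Rgs4), 1 fell and 10 were not called, with a median of -0.26. Over all tested genes 20.4% were higher and 12.3% lower. Cnn2, the broadly expressed calponin, rose by log2 2.06 ± 0.27, at 74.7, 106 and 54.9 FPKM after amputation and 20.3, 20.5 and 15.8 FPKM in sham. Actg1, cytoplasmic gamma actin, rose by 1.76 ± 0.28. Myh9, a non-muscle myosin heavy chain, rose by 0.99 ± 0.26, at 144, 160 and 100 FPKM against 66.8, 74.0 and 61.6 FPKM, while Myh10, another, stood at -0.26 ± 0.15 and was not called (edgeR adjusted p = 0.212). Tagln2 rose by 0.79 ± 0.18, and Rgs4 and Rgs16, which act on G-protein signals like Rgs5, rose by 1.17 ± 0.33 and 1.54 ± 0.34. The member that fell was Lmod2, a leiomodin of striated muscle, by 2.71 on the log2 scale (SE 0.79). Leaving out amputation 1, 2 and 3 and sham 1, 2 and 3 in turn gave 3, 4, 8, 3, 2 and 2 higher and 0, 0, 10, 0, 0 and 0 lower. With the muscle covariate 6 were higher and 2 lower, and with the replicate block 8 and 2. DESeq2, limma-voom and limma on log2 FPKM gave 3 lower each, with 8, 7 and 6 higher.

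The smooth muscle form took a smaller share after amputation in 4 of the 5 families compared, and a larger mean share among the leiomodins. Myh11 made up 13.5%, 6.30% and 15.8% of the FPKM of Myh11, Myh9, Myh10 and Myh14 in amputation 1 to 3, against 39.7%, 37.0% and 29.5% in sham. Cnn1 made up 2.31%, 1.38% and 4.68% of the 3 calponins, against 10.9%, 8.96% and 11.4%. Acta2 made up 7.43%, 7.24% and 9.58% of Acta2, Actg2, Actb and Actg1, against 19.8%, 17.4% and 13.6%. Tagln made up 56.4%, 57.5% and 62.8% of the 3 transgelins, against 74.1%, 69.8% and 63.2%. The groups were apart in these 4 families, by the least for Tagln. No share over other families was computed, and in CPM the groups did not overlap for 54.8% of all tested genes. Acta2 and Tagln themselves stood at log2 -0.0077 and 0.10, not called, while Actb (1.14), Actg1 (1.76) and Tagln2 (0.79) rose. Their smaller shares thus came without a called fall of the smooth muscle form. Lmod1 made up 12.97%, 15.78% and 3.228% of the 3 leiomodins in amputation 1 to 3, against 4.248%, 3.198% and 2.191% in sham. There the groups overlapped, amputation 3 lying below sham 1. Lmod2, the striated muscle leiomodin named above, stood at 17.8, 7.35 and 66.0 FPKM after amputation, against 190 to 219 FPKM in sham. The shares were not tested.

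**Figure D4:**
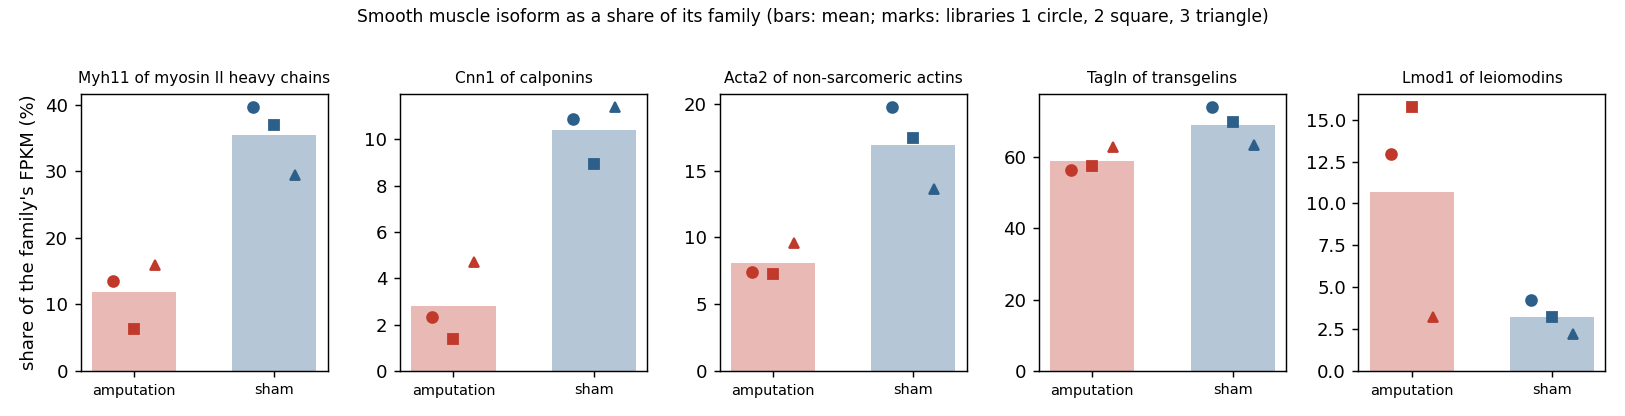
Share of a family's summed FPKM, in percent, taken by its smooth muscle form, amputation left and sham right, with bars for the mean of 3 libraries and marks for the libraries. Myh11 takes 6.30% to 15.8% of the non-sarcomeric myosin II heavy chains after amputation, against 29.5% to 39.7% in sham, while Lmod1 takes 3.23% to 15.8% of the leiomodins, against 2.19% to 4.25%.

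Other genes of the contraction pathway were split as well. Of 20 regulators and structural partners, 4 rose, 6 fell and 10 were not called, with a median log2 fold change of -0.91. The median was -0.30 with the muscle covariate, in the fit that cannot separate surgery from muscle content. The shares over all tested genes were 20.4% higher, near that of this list, and 12.3% lower. Cald1, caldesmon, an actin-binding protein of smooth muscle and many other cells, rose by log2 1.40 ± 0.22, at 75.0, 74.1 and 48.6 FPKM after amputation and 27.6, 26.2 and 20.8 FPKM in sham. Actg2, described above, was the next by p, and Myl6, a myosin light chain of many cell types, and Vcl, the adhesion protein vinculin, completed those higher, at 0.62 ± 0.19 and 0.77 ± 0.22. Pln, phospholamban, which holds back the calcium pump of smooth and slow striated muscle, fell by 2.33 (SE 0.33), at 0.994, 0.578 and 1.42 FPKM against 5.77, 4.81 and 4.55 FPKM. Mylk, the kinase that switches on smooth muscle myosin, fell by 1.15 (SE 0.22), at 17.4, 10.7 and 12.8 FPKM against 36.2, 31.5 and 22.3 FPKM.

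The other 4 that fell were Kcnmb1, Ppp1r14a, Cav1 and Ppp1r12a. Kcnmb1, a subunit of the calcium-activated potassium channel of smooth muscle, fell by 1.21 (SE 0.25). Ppp1r14a, an inhibitor of myosin phosphatase, fell by 0.997 (SE 0.23), and Ppp1r12a, a subunit of that phosphatase, fell by 0.47 (SE 0.14). Cav1, the caveolar coat protein, which is also abundant in endothelium and fat, fell by 0.83 (SE 0.20). Myl9, the regulatory light chain of smooth muscle myosin, stood at -0.18 ± 0.18 and was not called (edgeR adjusted p = 0.444). The intermediate filament gene Des is shared with skeletal muscle, and it stood at 78.3, 44.4 and 647 FPKM after amputation and 731 to 852 FPKM in sham, not called. Leaving out amputation 1, 2 and 3 and sham 1, 2 and 3 in turn gave 1, 1, 5, 1, 1 and 1 higher and 2, 4, 13, 2, 1 and 4 lower. With the muscle covariate 1 was higher and 3 were lower, DESeq2's Wald test gave 4 higher and 10 lower, and with no filter on low counts 2 were higher and 5 lower.

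A list of 12 genes for SRF, its coactivators and other regulators of smooth muscle had 2 higher, 1 lower and 9 not called. Its median was -0.31. Both counts lay near the shares over all tested genes, 20.4% higher and 12.3% lower. Tbx18, a transcription factor of mural cells and their precursors, rose by log2 2.02 ± 0.23, at 8.95, 8.64 and 6.33 FPKM after amputation and 2.59, 1.87 and 1.44 FPKM in sham. Mkl1, the actin-regulated SRF coactivator of many cell types also called MRTF-A, rose by 0.52 ± 0.13, at 8.64, 8.35 and 8.37 FPKM against 6.86, 5.64 and 5.17 FPKM. Prkg1, the kinase through which nitric oxide relaxes smooth muscle, fell by 0.67 (SE 0.18). Srf itself stood at 8.54, 10.5 and 12.8 FPKM after amputation and 13.2, 13.3 and 14.4 FPKM in sham, at log2 -0.35 ± 0.21, not called (edgeR adjusted p = 0.224). Mkl2 (-0.27) and Klf4, a repressor of contractile genes (-0.05), were not called. Leaving out amputation 1, 2 and 3 and sham 1, 2 and 3 in turn gave 1, 1, 2, 2, 1 and 1 higher and 1, 0, 5, 0, 0 and 0 lower. With the muscle covariate 1 was higher and none was lower, with the replicate block 2 were lower, and DESeq2's Wald test gave 3 lower.

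The genes most like Acta2, Myh11 and Rgs5 across the 6 libraries were sought among 11052 genes with a mean of at least 5 CPM, by the root mean square difference between log2 CPM profiles centred on their own mean. Nearest to Acta2 were Cd200 (0.05), Bbs9 (0.07), Apod (0.08), Nfkbil1 (0.09) and Rnaseh2a (0.09). Nearest to Myh11 were Csmd1 (0.11), Col4a4 (0.12), Asxl3 (0.16), Cacna1h (0.16) and Mrvi1 (0.18). Among these Col4a4 is a basement membrane collagen chain, and Mrvi1 is a substrate of the Prkg1 kinase in smooth muscle. Nearest to Rgs5 were Emcn, an endothelial surface protein (0.04), Zadh2 (0.05), Tmem131 (0.05) and Polr1b (0.06). Emcn stood at 16.2, 13.4 and 15.7 FPKM after amputation and 17.5, 20.2 and 17.7 FPKM in sham. These distances describe 6 libraries and carry no test.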

How the data were processed

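Libraries were stranded total RNA with ribosomal RNA removed, per the labels' protocols. The submitters' processing notes name Trimmomatic, HISAT2 and the build GRCm38.p6 without versions. The counting program and its strand setting are not given in the sources used here. The deposited table of whole read counts per gene was used as it stood, and 4031 of its 21878 genes had no count. The authors' deposited FPKM values equal those counts over library total and gene length, the implied length being whole within 0.01 bases for 100% of genes counted in all 6 libraries. No other column of per-sample values was present. No pair of libraries agreed within sampling noise (lowest chi-square per gene 15).

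Genes were filtered with filterByExpr (14561 tested, 7317 not) and scaled by TMM in edgeR 4.0.16 (R 4.3.3), and amputation was compared with sham by the quasi-likelihood test, with Benjamini-Hochberg adjustment and a threshold of 0.05. SE is the absolute log2 fold change over the square root of F, and 95% intervals use the test's degrees of freedom. The common biological coefficient of variation was 0.296. Alternatives used DESeq2 1.42.0, limma 3.58.1 and other scalings, filters, pseudocounts and library subsets. Log2 CPM used a prior count of 2. Tables were made with pandas 2.3.3 and scipy 1.17.1 (Python 3.11.15). In a simulated comparison of 14561 genes, the calls recovered 82% of 100 genes changed 4-fold but only 7% of 100 changed 2-fold. There were 3 false calls. The simulation held 200 changed genes, whereas 4757 were called in the data, so its recovery need not hold for these calls. Among members not called, the 95% intervals of Acta2 (-0.57 to 0.56), Tagln (-0.42 to 0.61) and Rgs5 (-0.77 to 0.18) stopped short of a 2-fold change. Those of Cnn1 (-1.18 to -0.01) and Smtn (-0.07 to 1.07) reached it. The absence of a call does not show that a gene was unchanged.

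The 9 genes and the 9 other lists (10 lists in all) were chosen with earlier results of these data known. Of each list the 2 called genes with the smallest p in each direction were named. For Acta2, Myh11 and Rgs5 the 5 genes nearest in profile were taken, and 1 of these is not reported here. Further genes of the lists (Pdgfrb, Kcnj8, Myl6, Vcl, Kcnmb1, Ppp1r14a, Cav1, Ppp1r12a, Myl9, Des, Srf, Mkl2 and Klf4) were chosen after their values were seen. The lists of skeletal muscle (Myl2 at log2 -2.37 ± 0.90, none of 30 called in edgeR's test, 3 at an unadjusted p under 0.05, 30 lower without amputation 3, 4 with the replicate block, 9 by DESeq2, none by limma-voom, and 9 and 10 by limma on FPKM with pseudocounts 1 and 0.1), tendon (5 of 8 higher, Tnmd and Kera with the smallest p, at 3.42 and 1.85, and 1 to 8 higher with single libraries left out) and cartilage markers (6 of 7 tested higher, Acan and Hapln1 at 6.81 and 5.37, and 8 of 8 higher without amputation 3) were used to describe the tissue. Deviations of same-numbered libraries had correlations of 0.26, 0.13 and 0.41 for numbers 1 to 3, each over the preset limit of 0.1 for pairing. Of the unmatched pairs, amputation 2 with sham 1 (0.24) and amputation 1 with sham 2 (0.11) also passed it, and the other 4 ran from -0.33 to -0.15. By the preset limit a fit with the replicate number as a block was run as an alternative.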

Additional observations from a re-analysis of the deposited data

How the results depend on the processing

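Each gene was refitted under 17 alternatives. The count of 0 higher and 4 lower was kept with DESeq2 size factors, upper quartile scaling, limma-voom, the Wald test of DESeq2, no filter on low counts, a stricter one (10 counts in each library of 1 group), both FPKM pseudocounts (1 and 0.1), and with the muscle markers out of the library sizes. The replicate block also gave 0 higher and 4 lower and changed no call among the 9. With the muscle covariate 0 were lower. Leaving out single libraries gave 0 to 5 lower and 0 to 1 higher: 0 lower without sham 2, 1 without sham 1, and 5 lower and 1 higher without amputation 3. Over all 17 alternatives Myh11 ranged from -1.66 to -1.001, Lmod1 from -1.76 to -1.20, Myocd from -1.74 to -0.85 (lowest in size on log2(FPKM + 1)) and Mcam from -0.65 to -0.50, with no change of sign. Acta2, near 0, turned to 0.041 with upper quartile scaling, 0.0073 with limma-voom, 0.0103 and 0.0106 on FPKM with pseudocounts 1 and 0.1, and 0.0084 with the replicate block, and ran from -0.20 to 0.11 with single libraries left out. Tagln turned to -0.041 with the muscle covariate and ran from -0.12 to 0.21 with single libraries left out. Neither was called under any of the 17. The cause of these shifts was not tested. Among the other lists, counts moved by over 1.5 times without a library being left out. DESeq2's Wald test gave 10 contractile regulators lower (6 in edgeR's test), 3 genes of the list of SRF and other regulators (1), 3 relatives (1) and 9 skeletal muscle markers (0). With no filter on low counts 2 contractile regulators were higher (4), and with the muscle covariate 3 tendon markers were (5). The same alternatives for the list counts, and the ratios without amputation 3, were chosen after seeing the data. With 3 libraries a group the intervals are wide, so a gene not called may still differ.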
